A study of Mus musculus with 36 samples.

Results

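Tumours grown from 3 mouse bladder cancer lines were compared with cultures of the same lines, library by library of bulk RNA sequencing. The members are samples and were taken from the labels alone: 10 line-derived tumours and the 3 cultures of their lines, which is 13 of the 36 libraries of the series. The tumours comprised 2 of BBN963, 4 of MB49 and 4 of UPPL1541, and each line had 1 culture. The remaining libraries are primary tumours and cultures of other lines. They were used in 1 alternative fit, and 2 of the primary tumours are given as values without a test.

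BBN963 carries the number of a primary tumour from a mouse given N-butyl-N-(4-hydroxybutyl)nitrosamine, a bladder carcinogen. Its tumours and its culture are labelled genotype Ctrl and treatment Untreated. MB49 is a widely used mouse bladder carcinoma line, and its tumours and culture have those same 2 labels. The UPPL1541 tumours are labelled Untreated and carry Upk3a-CreERT2, Rosa26LSL-Luc and p53f/f among their alleles, a design in which the promoter of the uroplakin gene Upk3a, a gene of superficial urothelial cells, drives an inducible Cre recombinase that removes Trp53 and switches on luciferase. The UPPL1541 culture is labelled Ctrl, although it bears the same line number as those tumours. Each model is 1 line, so a difference between models cannot be told apart from a difference between these lines. The host strain, sex, age and graft site of the tumours are not given in the sources used here, nor is whether tumours of a line came from separate animals, so p-values measure only the spread between these libraries, which may be technical.

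A tumour grown from a line holds the injected cancer cells together with host fibroblasts, vessels and leukocytes, whereas a culture holds the line alone. Cancer cells also leave a culture medium for a tissue in which oxygen and nutrients come through vessels. Genes read in bulk RNA therefore mix both kinds of difference: fewer cells of a type and less RNA per cell cannot be told apart.

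Values are the authors' gene estimates, scaled library by library to put the 75th percentile of nonzero values at 1000. They are called units here. Log2 changes are on the scale of log2(value + 1), tumours minus cultures, so a positive value means higher in tumours. Of 21705 genes in the table, 14716 reached 10 units in at least 2 of the 13 libraries and were tested with limma, with line as a factor and Benjamini-Hochberg adjustment over all genes tested. A lone culture gives no spread of its own and is assumed to vary as the tumours did. No fold is given for a gene whose culture is listed at 0 or stood under 10 units, since a listed 0 may be a failed estimate and the scale then sets the fold. The low values of every library fell on whole multiples of 1 read, which gave 10.64 M to 14.94 M reads per library. Among low values the commonest was 1 read in each culture but 2 to 19 reads in tumours: 19 reads (24.1 units) in BBN963 tumour 1, 9 reads (11.0 units) in BBN963 tumour 2 and 11 reads (11.4 units) in MB49 tumour 1. Values near or below those levels are uncertain in these 3 tumours. Tumours had 12489 to 15339 genes above 0 and cultures 12600 to 14049. Across genes, which are not independent replicates, the correlation of log2 values was 0.889 to 0.966 between tumours of 1 line, 0.766 to 0.842 between a tumour and the culture of its line, and 0.649 to 0.841 between tumours of 2 lines.

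Trp53, a gene targeted in the UPPL1541 model, was read first. It had 401 and 649.5 units in BBN963 tumours against 3017 in the culture, 1256, 1184, 1456 and 1516 in MB49 tumours against 1937, and 139, 75.6, 68.3 and 90.5 in UPPL1541 tumours against 50.4. Both UPPL1541 states were thus low for this tumour suppressor, the culture labelled Ctrl included, and only in BBN963 did Trp53 pass within the line (log2 change -2.56, SE 0.422, adjusted p = 0.0014). No BBN963 or MB49 library held Upk3a above 0, and it had 15.5, 56.1, 39.7 and 29.8 units in UPPL1541 tumours against 93.4 in the culture (adjusted p within the line = 0.30).

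Sex-linked transcripts also set the lines apart and, in UPPL1541, the states. Xist, the RNA that coats the inactive X chromosome, had 4081 and 7072 units in BBN963 tumours against 15290 in the culture, and was listed at 0 in all MB49 and UPPL1541 tumours. The Y-linked helicase gene Ddx3y had 0 and 0 units in BBN963 tumours against 0 in the culture, 217, 1203, 415 and 452 in MB49 tumours against 2175, and 136, 74.3, 194 and 70.3 in UPPL1541 tumours against 0.934. MB49 tumours were thus all below their culture, whereas UPPL1541 tumours were all above a culture with about 1 unit (adjusted p within UPPL1541 = 7.3e-04, for a difference of the change between lines = 0.0026). Eif2s3y, Kdm5d and Uty lie on the Y chromosome too; in UPPL1541 tumours they had 59.7, 49.5, 68.3 and 28.6, 35.8, 28.7, 16.1 and 31.0, and 14.3, 0, 34.8 and 25.0 units, against 5.60, 6.54 and 11.2 in the culture, and none of these 3 passed within a line.

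The labelled origin was checked against epithelial genes. Krt5, a keratin of basal epithelial cells, had 137660 and 130270 units in BBN963 tumours against 106940 in the culture, 5.20, 1.12, 7.46 and 11.7 in MB49 tumours against 0.964, and 129830, 135420, 117620 and 125430 in UPPL1541 tumours against 67387. BBN963 and UPPL1541 were rich in Krt5 in both states, while every MB49 library was at 11.7 units or lower. Epcam, an adhesion molecule of epithelia, was listed at 0 in the MB49 culture and in 3 of its 4 tumours. MB49 libraries were thus at or near 0 for Krt5, and at 0 for Epcam in most, in tumours and culture alike. Krt18, a keratin of simple epithelium, went the other way, by the values given below. All MB49 tumours held more of it than any tumour of the other lines, and the MB49 culture lay between the other cultures.

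Across all genes, 2855 were higher in tumours (19.4% of those tested) and 1281 were lower (8.70%), which is 28.1% in either direction. Within a line, 1633 were higher and 1632 lower in BBN963 tumours (11.1% and 11.1%), 3439 and 984 in MB49 tumours (23.4% and 6.69%), and 2498 and 1171 in UPPL1541 tumours (17.0% and 7.96%). A gene was called shared when it passed with line as a factor and within every line in the same direction, which 722 higher genes (4.91%) and 102 lower genes (0.693%) did. The change differed between lines for 3188 genes (21.7%). A gene was called particular to a line when it passed there and its change also differed, by test, from both other lines: 63 higher and 132 lower genes in BBN963 (0.428% and 0.897%), 865 and 141 in MB49 (5.88% and 0.958%), and 98 and 52 in UPPL1541 (0.666% and 0.353%). Without BBN963 tumour 2, 528 genes were particular to BBN963 and lower, and 67 to 87 without MB49 tumour 3, MB49 tumour 4, UPPL1541 tumour 1 or UPPL1541 tumour 4. Those particular to UPPL1541 and higher numbered 59 to 65 without MB49 tumour 3, MB49 tumour 4 or UPPL1541 tumour 4, and the lower ones 34 without MB49 tumour 3. Leaving out the 1 culture of a line takes that line out of the contrast with line as a factor. The directions were not balanced: of the genes called with line as a factor 69.0% were higher, against 45.4% under quantile normalization, 55.8% by edgeR on recovered reads, 66.4% under median-of-ratios scaling, 76.6% with array weights and 57.2% without the MB49 culture. The median log2 change over all genes was 0.14 in the fit with line as a factor, -0.15 in BBN963, 0.39 in MB49 and 0.22 in UPPL1541, and it was -0.16 under quantile normalization, so small changes are best read relative to it.

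**Figure D1:**
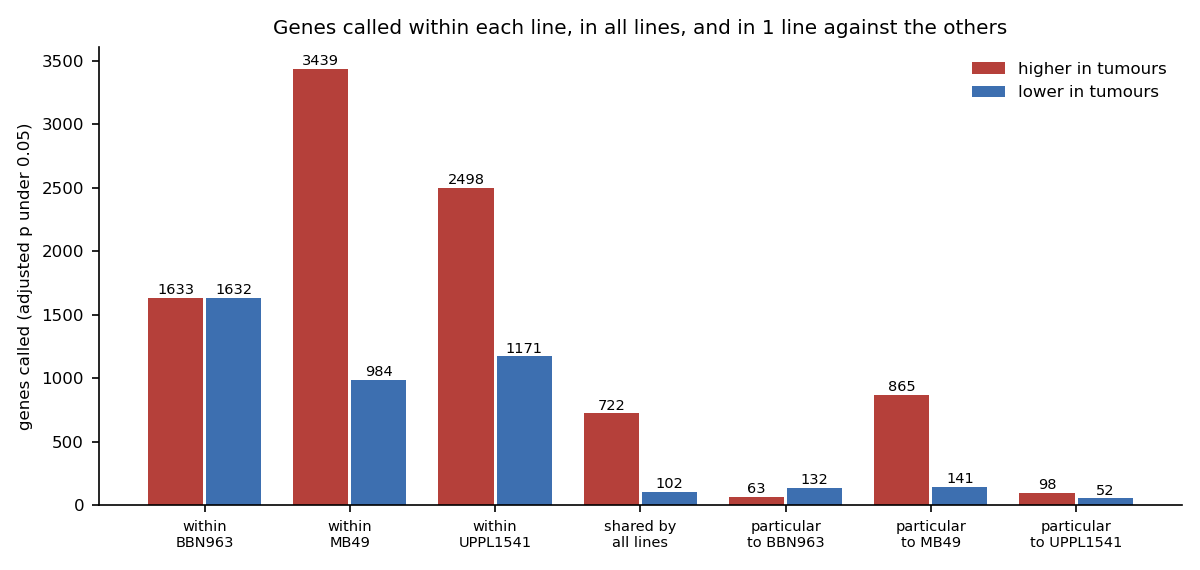
Bars give the number of genes that passed at an adjusted p under 0.05 (vertical axis, from 0), higher in tumours in red and lower in blue, within each line, shared by all lines, and particular to 1 line. MB49 tumours had 3439 higher genes and 865 higher genes particular to the line, the tallest bar of either kind.

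Every tumour stood above every culture for 991 genes (6.73%) and below every culture for 368 (2.50%). Of the genes higher in tumours, 406 (2.76% of those tested) had no culture value above 0. Those are genes that the tumour libraries hold and the cultures do not list at all. Most of the groups described next are named after host cell types, but which cells held the RNA was not tested.

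Genes of fibroblasts and their matrix rose in tumours of every line. Of 21 tested, 21 were higher in tumours, where 19.4% of all genes were. In every line 16 of them rose (4.91% of all genes), and 17 had every tumour above every culture (6.73% of all genes). The median log2 change was 9.17 over all members tested and 8.55 over those above 0 in at least 1 culture, against 0.14 over all genes. Col3a1, a fibrillar collagen of loose connective tissue, had 28198 and 24779 units in BBN963 tumours against 0 in the culture, 41371, 8049, 6036 and 11523 in MB49 tumours against 0, and 116580, 37093, 126550 and 162990 in UPPL1541 tumours against 1.87. All 10 tumours exceeded all 3 cultures by a wide margin, and MB49 tumour 1 stood well above the other 3 MB49 tumours (adjusted p = 5.9e-10). Col1a1, the main collagen of scar and bone, had 36115 and 26033 units in BBN963 tumours against 23.1 in the culture, 27432, 4348, 2997 and 6143 in MB49 tumours against 21.2, and 49411, 10711, 52982 and 72960 in UPPL1541 tumours against 8.40. The groups did not overlap (adjusted p = 4.2e-07), and UPPL1541 tumour 2 was the lowest of its line for both collagens. Thy1, a surface protein of fibroblasts, was listed at 0 in all cultures and had 222 to 1950.5 units in tumours. Bgn, which encodes the collagen-binding proteoglycan biglycan, had 9551 and 8309 units in BBN963 tumours and 2.43 in their culture, and Col1a2, the partner chain of Col1a1, followed Col1a1 in rank across the UPPL1541 tumours. The summed level of its 21 measured markers was 50284 to 621530 units in tumours and 254 to 7639.6 units in cultures, where 6 to 11 markers were at 0. Whether host or cancer cells held these transcripts was not tested, nor was their part in the change of any other gene.

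**Figure D2:**
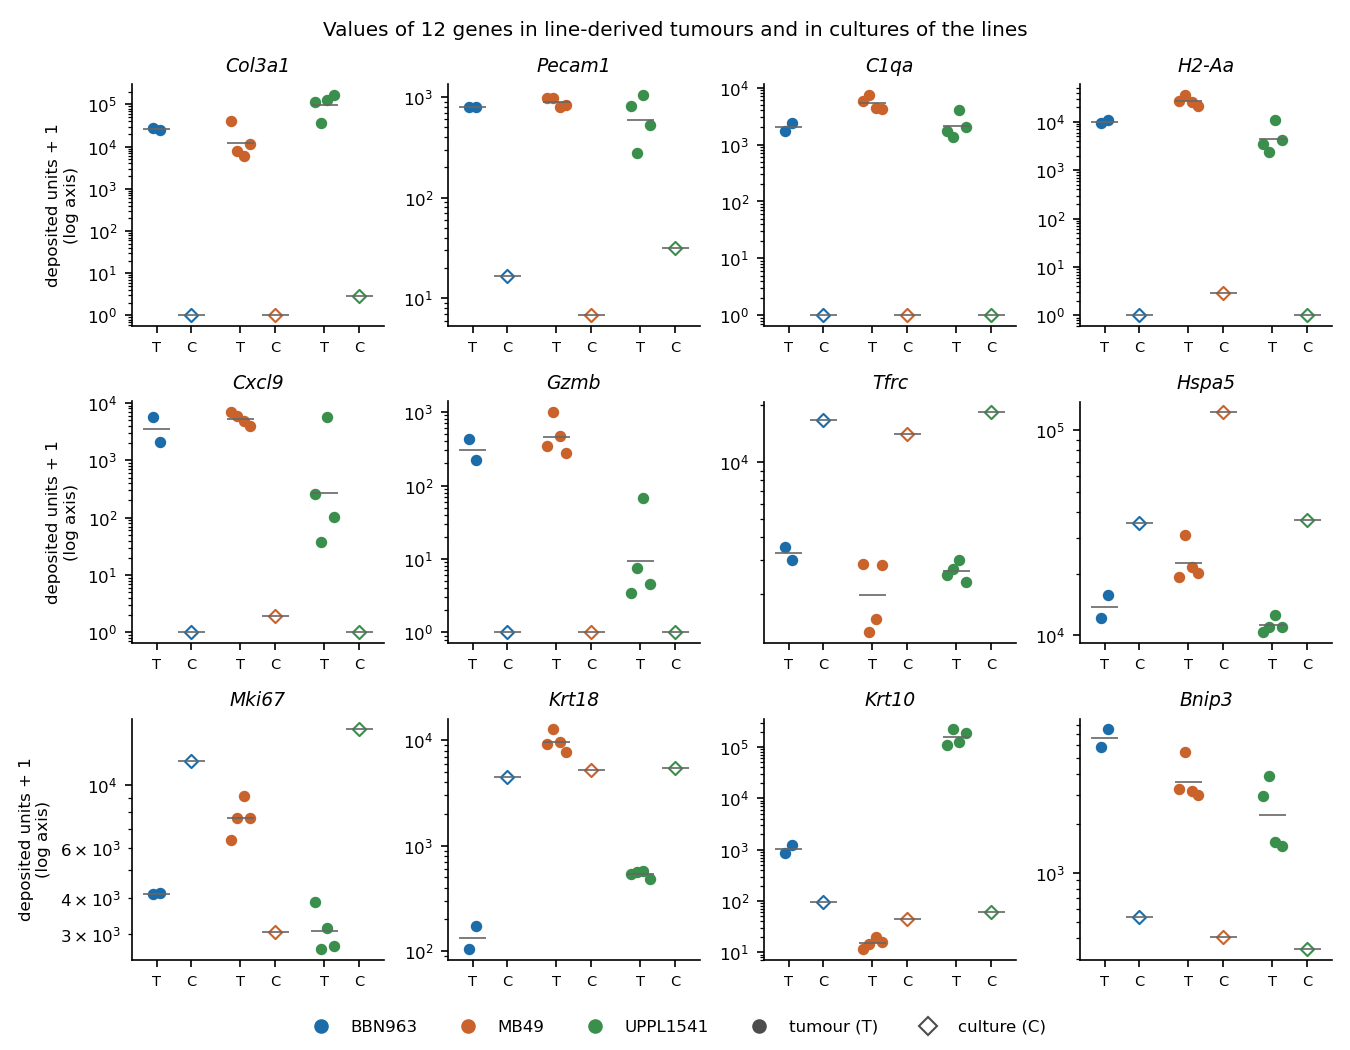
Each panel plots 1 gene on a log axis in deposited units plus 1; filled circles are tumours (T), open diamonds cultures (C), colours are lines, and horizontal bars are means of log2(value + 1). Col3a1, Pecam1, C1qa and H2-Aa were above their cultures in all 10 tumours, Tfrc and Hspa5 below them, and Mki67 and Krt18 moved in opposite directions in MB49 and UPPL1541.

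Genes of vessel walls and vessels rose as well. Of 12 pericyte and smooth muscle genes, 11 were higher (19.4% of all genes) and 4 were shared (4.91%). The median was 4.34 over all members tested and 4.15 over those above 0 in at least 1 culture. Acta2, the actin of smooth muscle and of activated fibroblasts, had 4203 and 2463 units in BBN963 tumours against 30.4 in the culture, 3164, 549, 425 and 530.3 in MB49 tumours against 0, and 5748, 1394, 4995 and 4185 in UPPL1541 tumours against 144. MB49 tumour 1 held over 5 times the Acta2 of its neighbours, the same tumour that led in collagen. Of 16 endothelial genes 15 were higher (19.4% of all genes), 12 in every line (4.91%). The median was 5.60 over all members tested and 5.50 over those above 0 in at least 1 culture. Pecam1, an adhesion molecule of endothelial junctions, had 799 and 797 units in BBN963 tumours against 15.8 in the culture, 972, 971, 788 and 834 in MB49 tumours against 5.78, and 818, 278, 1034 and 525 in UPPL1541 tumours against 30.8. Tumours and cultures did not overlap (adjusted p = 1.2e-06). Cdh5, the cadherin of endothelial junctions, was listed at 0 in 2 cultures and had 665, 143, 831 and 650.2 units in UPPL1541 tumours, of which tumour 2 was the lowest. Cldn5 and Emcn, which encode a tight junction protein and a mucin of endothelium, were listed at 0 in all cultures and were shared (adjusted p = 3.5e-07 for both Cldn5 and Emcn). Flt1 was the exception among endothelial genes. This receptor for vascular endothelial growth factor had 145 and 104 units in BBN963 tumours against 0 in the culture, 183, 254, 172 and 186 in MB49 tumours against 0.964, and 814, 249, 422 and 395 in UPPL1541 tumours against 1835, so it rose in BBN963 and MB49 tumours but fell in UPPL1541 tumours, whose culture was the highest of all libraries (within UPPL1541 log2 change -2.09, SE 0.585, adjusted p = 0.023).

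Macrophage genes were high in every tumour. Of 20 tested, 18 were higher (19.4% of all genes), 16 were shared (4.91%) and 8 were listed at 0 in all cultures (2.76% of all genes were higher and so listed). The median log2 change was 7.82 over all members tested and 6.69 over those above 0 in at least 1 culture. C1qa, a chain of the first complement component that tissue macrophages make, had 1750 and 2369 units in BBN963 tumours against 0 in the culture, 5711, 7247, 4299.6 and 4279.7 in MB49 tumours against 0, and 1743, 1331, 3952 and 2062 in UPPL1541 tumours against 0. No culture showed any, and MB49 tumours had the 4 highest values (adjusted p = 7.8e-11). C1qb and C1qc, the other chains, gave the same picture, with 5337, 6961, 4550.1 and 4479 units of C1qb in MB49 tumours and 0 in its culture. Csf1r, the receptor that macrophages need to survive, had 635 and 653 units in BBN963 tumours against 0 in the culture, 2432, 2649, 1894 and 2050.1 in MB49 tumours against 0, and 1020.3, 918, 1877 and 1109 in UPPL1541 tumours against 360.4. It was shared, yet the UPPL1541 culture already held 360 units, and the change differed between lines (adjusted p = 2.0e-06). Ctss and Laptm5, a protease and a membrane protein of leukocyte lysosomes, were among the 8 shared genes with the largest rise and were listed at 0 in every culture. Tumours had 4467, 5356, 8704 and 3596 units of Ctss in UPPL1541 and 12599, 11414, 8585 and 7735 in MB49. Cd68, a lysosomal marker that other cells also express, rose as well (log2 change 1.99, SE 0.289, adjusted p = 2.4e-04), with 401 and 569.9 units in BBN963 tumours against 247 in the culture, 1155, 1171, 839 and 1115 in MB49 tumours against 172, and 634, 776, 622 and 385 in UPPL1541 tumours against 124.

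**Figure D3:**
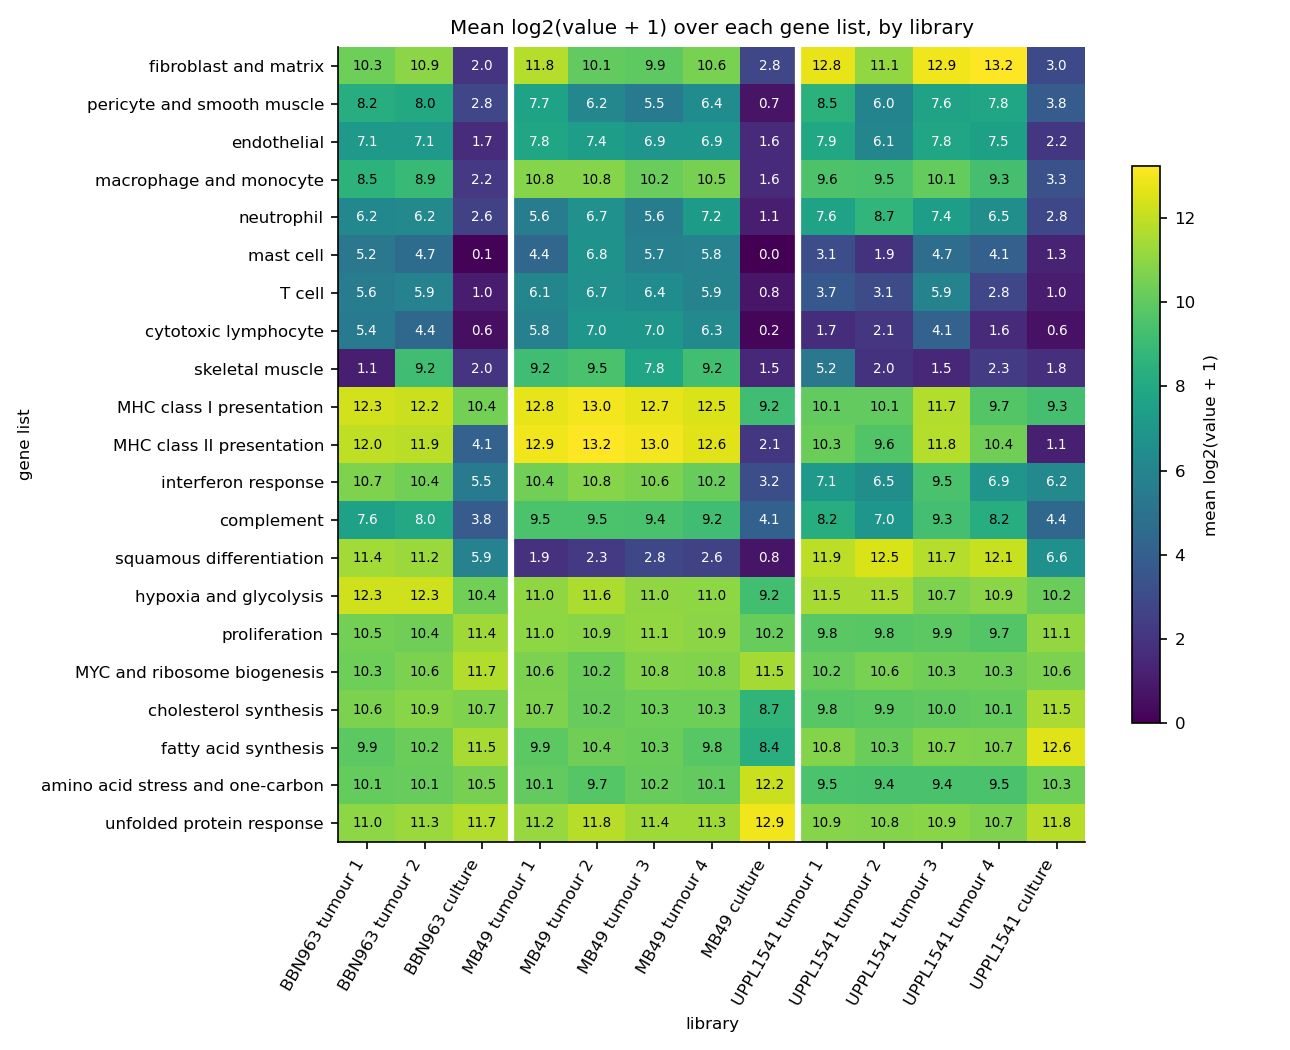
Each cell is the mean of log2(value + 1) over the measured genes of a list (vertical axis) in 1 library (horizontal axis, tumours left of the culture of their line). Fibroblast, macrophage and MHC class II genes were high in all tumours, squamous genes in BBN963 and UPPL1541 tumours, and cytotoxic genes were lowest in UPPL1541 tumours among the tumours.

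MHC class II molecules present peptides taken up from outside the cell and mark antigen-presenting leukocytes. All 8 genes tested were higher in tumours (19.4% of all genes) and shared by every line (4.91%). Of them, 5 changed to a different degree between lines, as did 21.7% of all genes. The median was 9.09 over all members tested and 8.32 over those above 0 in at least 1 culture. H2-Aa, the alpha chain of the I-A molecule, had 9456 and 10755 units in BBN963 tumours against 0 in the culture, 26776, 34932, 25317 and 21601 in MB49 tumours against 1.93, and 3514, 2364, 10720 and 4268 in UPPL1541 tumours against 0. Tumours exceeded cultures throughout (adjusted p = 4.7e-11), and MB49 tumours were the highest. Cd74, the invariant chain that guards the peptide groove, had 30732 and 31661 units in BBN963 tumours against 53.5 in the culture, 39911, 51387, 38804 and 33190 in MB49 tumours against 1845, and 7117, 3799, 22148 and 7969 in UPPL1541 tumours against 1.87. Its change was smallest in MB49, whose culture alone held over 1000 units (log2 change 4.45, SE 0.639, adjusted p = 3.1e-04), against BBN963 (log2 change 9.16, SE 0.699, adjusted p = 7.1e-06). The promoter of H2-Aa is shown because this gene was listed at or near 0 in cultures and at 2364 units or more in tumours. It gives the 250 bases before the start of the gene, from RefSeq on build GRCm38.p6, with the Y box, CTGATTGG on either strand, in capitals.
H2-Aa (chr17:34287824-34288073, - strand): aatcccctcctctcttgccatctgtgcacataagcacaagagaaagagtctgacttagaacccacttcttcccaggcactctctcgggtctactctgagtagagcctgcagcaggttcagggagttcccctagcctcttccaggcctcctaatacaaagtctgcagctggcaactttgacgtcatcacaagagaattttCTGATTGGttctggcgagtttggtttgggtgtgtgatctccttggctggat
The Y box is an element that MHC class II promoters share. It occurred in 2 of the 5 list genes with a promoter in that reference (H2-Aa and H2-Eb1). Of all 27025 genes with a promoter there 4.43% had it, and a gene counted when any of its promoters did.

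Complement genes other than the C1q chains rose with these groups: 8 of 10 were higher (19.4% of all genes), 7 of them shared (4.91%). C4b and Serping1, which encode a central component and an inhibitor of the cascade, were listed at 0 in all cultures; Serping1 had 975, 146, 1638 and 869 units in UPPL1541 tumours and 1248 and 1446 in BBN963 tumours. Cfp, properdin, had 1393, 1376, 853 and 1064 units in MB49 tumours and 28.9 in the culture, the largest rise of the 3 lines (log2 change 5.26, SE 0.397, adjusted p = 2.5e-06). C3, the protein on which all complement pathways meet, did not follow. It rose in MB49 tumours (log2 change 1.47, SE 0.482, adjusted p = 0.039), fell in UPPL1541 tumours (log2 change -1.71, SE 0.482, adjusted p = 0.024) and did not pass in BBN963 (adjusted p = 0.21).

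Of 8 neutrophil genes 6 were higher (19.4% of all genes) and 4 shared (4.91%). The median was 5.63 over all members tested and 6.93 over those above 0 in at least 1 culture. S100a8, a subunit of the granulocyte protein calprotectin, had 1792 and 871 units in BBN963 tumours against 1.22 in the culture, 931, 658, 207 and 2415 in MB49 tumours against 0.964, and 4663, 15108, 3957 and 4472 in UPPL1541 tumours against 4.67. UPPL1541 tumour 2 held over 3 times the value of the other tumours of its line, while no culture reached 5 units (adjusted p = 1.7e-07). Csf3r, the receptor for granulocyte growth factor, was listed at 0 in all cultures and had 595, 1212, 399 and 226 units in UPPL1541 tumours, tumour 2 again the highest. The summed level of its 10 measured markers was 2145 to 44540 units in tumours and 967 to 15626 units in cultures, with 5 to 8 of its markers at 0 in a culture. Mmp9, a gelatinase that neutrophils store, rose in BBN963 and UPPL1541 tumours but had 1237, 1642, 694 and 826 units in MB49 tumours against 967 in the culture.

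Mast cell and dendritic cell genes were less complete. Of 7 mast cell genes tested 5 were higher, beside 19.4% of all genes, and 6 were listed at 0 in all cultures. Mcpt4, a chymase of connective tissue mast cells, had 222 and 131 units in BBN963 tumours, 190.4, 549.9, 278 and 244 in MB49 tumours and 10.8, 6.52, 85.7 and 8.34 in UPPL1541 tumours, and was shared (adjusted p = 1.2e-04). Kit, the receptor that mast cells need, did not pass (adjusted p = 0.051): it rose in BBN963 and MB49 tumours, while UPPL1541 tumours had 443, 378, 312 and 192 units against 1058 in their culture. Of 9 dendritic cell genes 4 were higher, beside 19.4% of all genes, and 2 were higher without the MB49 culture. Itgax, an integrin of dendritic cells and some macrophages, was listed at 0 in all cultures and had 447 and 631 units in BBN963 tumours, 1153, 1045, 1597 and 1259.9 in MB49 tumours and 962, 959.6, 1188 and 631 in UPPL1541 tumours. Flt3, which marks dendritic cell precursors, had 305, 281, 415 and 318 units in MB49 tumours and 740.1 in the MB49 culture, and did not pass there (adjusted p = 0.44).

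Lymphocyte genes were higher in tumours, in numbers that depended on single libraries. Of 14 T cell genes 10 were higher with line as a factor (19.4% of all genes), 3 were shared (4.91%) and 9 were listed at 0 in all cultures. Within a line, 8 were higher in BBN963 (11.1% of all genes), 11 in MB49 (23.4%) and 4 in UPPL1541 (17.0%). By the F test, the change differed between lines for 0 of them at the adjusted threshold, against 21.7% of all genes, which does not show that the lines were alike. The BBN963 count was 4 without BBN963 tumour 1 and 5 without BBN963 tumour 2, and the count with line as a factor was 4 with array weights and 5 without the line MB49. Cd3d, a chain of the T cell receptor complex, had 103 and 141 units in BBN963 tumours, 82.2, 153, 115 and 46.6 in MB49 tumours and 1.19, 11.7, 9.93 and 0 in UPPL1541 tumours. Icos and Il2ra, receptors of activated and regulatory T cells, were shared (adjusted p = 1.1e-04 for Icos and 2.2e-05 for Il2ra). Of 12 cytotoxic genes 8 were higher (19.4% of all genes) and 0 were shared (4.91%). Within a line 6 passed in BBN963, 11 in MB49 and 0 in UPPL1541, where 11.1%, 23.4% and 17.0% of all genes did. The change was shown to differ between lines for 1 of the 12. With line as a factor 2 were higher with array weights and 2 without the line MB49, and 2 passed in BBN963 without BBN963 tumour 1. Gzmb, the granzyme that killer cells inject, was listed at 0 in all cultures and had 429 and 219 units in BBN963 tumours, 339, 987, 475 and 274 in MB49 tumours and 2.39, 6.52, 67.0 and 3.57 in UPPL1541 tumours. Only tumour 3 of UPPL1541 exceeded 10 units. The change of Gzmb was not shown to differ between lines (adjusted p = 0.10). Igj, the joining chain of secreted antibody, was the 1 member of 4 B cell and plasma cell genes that passed. It was shared, with 47.8, 93.9, 2097 and 116 units in UPPL1541 tumours, and Cd79a, the B cell receptor chain, was listed at 0 in all BBN963 and UPPL1541 libraries.

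Most interferon-induced genes rose in BBN963 and MB49 tumours, by changes that differed between lines. Of 24 tested, 21 were higher with line as a factor. Within a line 20 were higher in BBN963 (11.1% of all genes), 23 in MB49 (23.4%) and 5 in UPPL1541 (17.0%). The median log2 changes were 4.48, 7.79 and 0.51. The change differed between lines for 17 of the 24, beside 21.7% of all genes. Without the MB49 culture 12 were higher, and 14 under quantile normalization and 13 by edgeR. With array weights 6 were higher and without the line MB49 6, beside 19.4% of all genes. Within a line, the fit over all 36 libraries gave 6 higher in BBN963, 20 in MB49 and 2 in UPPL1541. Cxcl9, a chemokine that draws T cells, had 5716 and 2087 units in BBN963 tumours against 0 in the culture, 6812, 5814, 4773 and 3960.4 in MB49 tumours against 0.964, and 253, 36.5, 5607 and 100.03 in UPPL1541 tumours against 0. UPPL1541 tumour 3 stood above the other 3 tumours of that line, which were below every tumour of the other lines. Gbp5, a guanylate-binding protein of cell-autonomous defence, was listed at 0 in all cultures, and had 1691, 1909, 1908 and 1476 units in MB49 tumours and 74.1, 19.6, 452 and 51.2 in UPPL1541 tumours. Both passed in every line (adjusted p with line as a factor = 2.0e-05 for Cxcl9 and 9.3e-06 for Gbp5). Irf1, an interferon-driven transcription factor, passed in MB49 alone of the 3 contrasts (log2 change 2.27, SE 0.364, adjusted p = 6.9e-04). UPPL1541 tumour 3 also led its line in T cell genes, with a list mean of 5.9 on the log2 scale, against 2.8 to 3.7 in the other tumours; the part of these cells in the values was not tested. The Gbp5 promoter is shown for this group, with the interferon-stimulated element 2 copies of GAAA with 2 free bases between them on either strand, in capitals.
Gbp5 (chr3:142496684-142496933, + strand): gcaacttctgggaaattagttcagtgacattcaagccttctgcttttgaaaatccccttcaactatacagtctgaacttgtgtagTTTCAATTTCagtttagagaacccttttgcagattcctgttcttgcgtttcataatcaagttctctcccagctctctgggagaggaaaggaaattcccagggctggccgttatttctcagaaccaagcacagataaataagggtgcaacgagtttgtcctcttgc
In the same 250-base window, 10 of 17 list genes with a promoter held this element, and 3.46% of all genes with a promoter did.

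MHC class I genes, which display peptides from inside the cell to killer T cells, were mostly higher in tumours with line as a factor. Of 14, 11 were higher and 1 was lower (8.70% of all genes were), with a median of 2.00; without the MB49 culture 5 were higher, with array weights 5 and without the line MB49 4. By line, 6 rose in BBN963 tumours, 12 in MB49 tumours and 4 in UPPL1541 tumours; the BBN963 count was 1 without BBN963 tumour 1 or tumour 2 and 10 without UPPL1541 tumour 3. The change differed between lines for 7 of the 14, beside 21.7% of all genes. Of all genes, 19.4% were higher with line as a factor, 11.1% in BBN963, 23.4% in MB49 and 17.0% in UPPL1541. B2m, the light chain of class I molecules, had 68708 and 80183 units in BBN963 tumours against 11864 in the culture, 64466, 128860, 73420 and 74442 in MB49 tumours against 10054, and 9183, 8695, 59339 and 6504 in UPPL1541 tumours against 8222. In UPPL1541, tumour 3 alone stood clear of the culture. B2m lost its call without the BBN963 culture (adjusted p = 0.072) and without the MB49 culture (adjusted p = 0.11). Tap1, which pumps peptides into the endoplasmic reticulum, had 484, 464, 2527 and 423 units in UPPL1541 tumours against 421 in the culture and 6734, 5654, 5115 and 4376 units in MB49 tumours against 258. Tap1 lost its call without the MB49 culture (adjusted p = 0.060). Psmb8 and Psmb10, subunits of the immunoproteasome, passed in every line (adjusted p = 7.4e-04 for Psmb8 and 8.0e-04 for Psmb10). The 1 gene that fell was Calr, a chaperone of the endoplasmic reticulum, in every line (log2 change -1.11, SE 0.158, adjusted p = 2.1e-04).

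**Figure D4:**
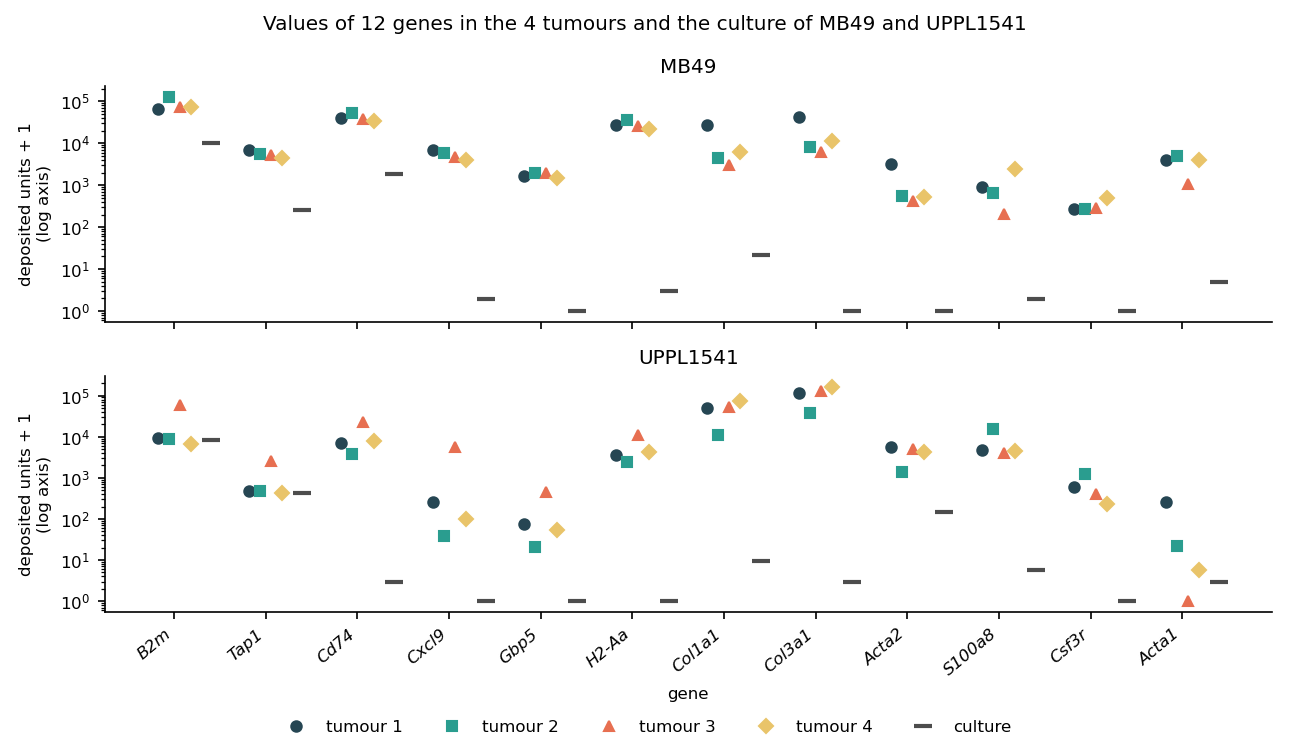
Values in deposited units plus 1 on a log axis for 12 genes (horizontal axis) in the 4 tumours (symbols) and the culture (dash) of MB49, above, and of UPPL1541, below. UPPL1541 tumour 3 lay above the other 3 tumours of its line for B2m, Tap1, Cd74, Cxcl9 and Gbp5, and MB49 tumour 1 above its neighbours for Col1a1, Col3a1 and Acta2.

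Markers of tissue around a graft varied from tumour to tumour. The counts below stand beside 19.4% of all genes that were higher with line as a factor. Of 13 skeletal muscle genes 4 passed, a count that was 11 without BBN963 tumour 1, 1 without the MB49 culture, 2 without the BBN963 culture and 7 without the UPPL1541 culture, and 10 by edgeR. Acta1, the actin of skeletal muscle fibres, had 29.2 and 3036 units in BBN963 tumours against 8.52 in the culture, 3915, 5045, 1078 and 3988 in MB49 tumours against 3.85, and 258, 20.9, 0 and 4.76 in UPPL1541 tumours against 1.87. All MB49 tumours and BBN963 tumour 2 held over 1000 units, while BBN963 tumour 1 and 3 of the UPPL1541 tumours were under 30. Acta1 lost its call without the BBN963 culture (adjusted p = 0.058) and without the MB49 culture (adjusted p = 0.18). The summed level of its 14 measured markers was 105 to 23016 units in tumours and 289 to 2722 units in cultures. Of 7 adipocyte genes 2 were higher, Fabp4 and Lpl, a fatty acid carrier and a lipase that macrophages and vessels express too; Adipoq, the defining hormone of fat cells, had 0 to 47.8 units in tumours. Of 5 nerve genes 2 passed (Mbp and Pmp22). Mbp lost its call without any 1 of BBN963 culture, BBN963 tumour 1, MB49 culture, MB49 tumour 1, MB49 tumour 2, MB49 tumour 3, MB49 tumour 4 and UPPL1541 tumour 1, at adjusted p of up to 0.36. Of 3 red cell genes 1 passed, the globin gene Hba-a2, with 84.8, 506, 3.72 and 22.6 units in UPPL1541 tumours.

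Among the 102 shared genes that were lower in tumours, 8 were ranked first by their smallest fall in any line, and in all 8 every culture was above the tumours of its own line. Chka, which encodes choline kinase, the first step of phosphatidylcholine synthesis, had 326 and 208 units in BBN963 tumours against 1921 in the culture, 994, 654, 961 and 1010.5 in MB49 tumours against 9658, and 135, 239, 144 and 195 in UPPL1541 tumours against 1052. All 10 tumours were below all 3 cultures (log2 change -2.97, SE 0.241, adjusted p = 1.2e-06). Tfrc, the transferrin receptor that brings iron into the cell, had 3537 and 3018 units in BBN963 tumours against 16640 in the culture, 2882, 1241, 1456 and 2823 in MB49 tumours against 14041, and 2508, 2707, 3016 and 2303 in UPPL1541 tumours against 18317. Again the groups did not overlap, and Tfrc fell by 2.68 on the log2 scale (SE 0.239, adjusted p = 3.0e-06). Slc11a2, which carries the iron out of the endosome, fell too, with 345 and 618 units in BBN963 tumours against 1512 in the culture, 369, 327, 294 and 361 in MB49 tumours against 1077, and 595, 416, 451 and 594 in UPPL1541 tumours against 1963. Steap1, a member of a family of metalloreductases, fell by 2.60 and Cyb5r1, a cytochrome b5 reductase, by 2.35 (adjusted p = 1.5e-04 and 1.3e-05). Ereg, the EGF receptor ligand epiregulin, had 234 and 136 units in BBN963 tumours against 1292 in the culture, 766, 480.4, 638 and 533 in MB49 tumours against 2592, and 177, 219, 95.6 and 270.3 in UPPL1541 tumours against 723. Epha2, an ephrin receptor of epithelial cells, fell by 1.89 (SE 0.165), and its 10 tumours at 1229 to 2830 units lay under cultures at 5871 to 8296. Utp20, a factor of small ribosomal subunit assembly, fell by 1.83 (adjusted p = 7.0e-05).

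Chaperones of the unfolded protein response, which help proteins fold in the endoplasmic reticulum, fell in tumours. Of 10 genes 8 were lower (8.70% of all genes), none was higher and 2 were shared (0.693%), with a median log2 change of -1.01. Without the line UPPL1541 3 were lower. The falls numbered 3 in BBN963 (11.1% of all genes; 5 without MB49 tumour 2), 8 in MB49 (6.69%) and 6 in UPPL1541 (7.96%). Hspa5, the chaperone BiP, had 12190 and 15678 units in BBN963 tumours against 35460 in the culture, 19204, 30872, 21513 and 20216 in MB49 tumours against 122080, and 10336, 10999, 12550 and 10927 in UPPL1541 tumours against 36707. The MB49 culture was the highest library by far, and every tumour was under its own culture (log2 change -1.87, SE 0.207, adjusted p = 2.3e-05). Hyou1, a large chaperone of the same compartment, fell in every line (log2 change -1.74, SE 0.165, adjusted p = 5.3e-06). Hsp90b1 and Creld2 fell with line as a factor (log2 change -1.18 for Hsp90b1 and -0.95 for Creld2). Xbp1, a transcription factor of this response, did not pass (adjusted p = 0.91): it fell in MB49 tumours and rose in UPPL1541 tumours. The Hspa5 promoter is shown with the endoplasmic reticulum stress element, CCAAT and CCACG with 9 free bases between them on either strand, in capitals.
Hspa5 (chr2:34771840-34772089, + strand): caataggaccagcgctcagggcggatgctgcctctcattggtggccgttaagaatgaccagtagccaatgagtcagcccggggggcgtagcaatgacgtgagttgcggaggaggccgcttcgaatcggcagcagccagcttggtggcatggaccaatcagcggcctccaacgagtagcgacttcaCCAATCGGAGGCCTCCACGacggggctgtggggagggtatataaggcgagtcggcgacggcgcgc
The element was found in 3 of 8 list genes with a promoter (Hspa5, Hsp90b1 and Creld2) and in 35 of all 27025 genes with one.

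Genes of ribosome assembly and amino acid supply also fell. Of 17 ribosome biogenesis genes 11 were lower and none was higher, with a median of -0.74; the count was 6 without the BBN963 culture, 5 without the MB49 culture, 4 with array weights and 7 without BBN963 tumour 1 and MB49 tumour 1. With line as a factor 8.70% of all genes were lower. Within a line 11 ribosome biogenesis genes fell in BBN963 (11.1% of all genes), 12 in MB49 (6.69%) and 3 in UPPL1541 (7.96%). The UPPL1541 count was 1 without UPPL1541 tumour 1 or tumour 4. Ncl, nucleolin, had 22230 and 21504 units in BBN963 tumours against 40646 in the culture, 21937, 18962, 23649 and 22385 in MB49 tumours against 36457, and 12303, 12420, 13762 and 12828 in UPPL1541 tumours against 18958. The falls were small but alike in every line (log2 change -0.73, SE 0.135, adjusted p = 0.0015). Mybbp1a and Nolc1, both proteins of the nucleolus, were shared as well, with log2 changes of -0.97 for Mybbp1a and -1.01 for Nolc1. Myc itself passed in MB49 alone of the 3 contrasts (log2 change -1.14, SE 0.235, adjusted p = 0.0036). Of 18 amino acid and one-carbon genes 11 were lower (8.70% of all genes) and none higher, 7 without the MB49 culture. In MB49 16 fell (6.69% of all genes), with a median of -1.67, against 4 in BBN963 (11.1%) and 8 in UPPL1541 (7.96%). Phgdh, the first enzyme of serine synthesis, had 1228 and 1298 units in BBN963 tumours against 2976 in the culture, 2508, 1723, 2479.7 and 2411 in MB49 tumours against 4474, and 507, 681, 648 and 485 in UPPL1541 tumours against 1140.1. It fell in every line (log2 change -1.06, SE 0.158, adjusted p = 2.8e-04), and so did Slc3a2, the heavy chain of amino acid exchangers (log2 change -0.98, SE 0.122, adjusted p = 6.5e-05). Asns, asparagine synthetase, fell in MB49 and UPPL1541 tumours and had 3186 and 3428 units in BBN963 tumours against 2864 in the culture. Atf4, the factor that drives many of these genes, was particular to MB49 and lower there (log2 change -1.14, SE 0.208, adjusted p = 0.0017).

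Cell cycle genes moved in opposite directions by line. With line as a factor 3 of 20 were lower (8.70% of all genes) and 0 higher (19.4%), yet the change differed between lines for 16 (21.7%). Within a line 0 were higher and 14 lower in BBN963, 11 and 1 in MB49, and 0 and 19 in UPPL1541 (-0.95, 0.78 and -1.30 as medians). Of all genes, 11.1% were higher and 11.1% lower in BBN963, 23.4% and 6.69% in MB49, and 17.0% and 7.96% in UPPL1541. The pooled count of lower genes was 17 without the MB49 culture, 1 without the UPPL1541 culture and 7 by edgeR. Within a line, the fit over all 36 libraries gave the same medians but far fewer calls. There 0 were lower in BBN963, 2 higher in MB49 and 1 lower in UPPL1541. Mki67, the antigen of cycling cells, had 4123 and 4165 units in BBN963 tumours against 12150 in the culture, 6379, 7661, 9138 and 7657 in MB49 tumours against 3035, and 3873, 2638, 3140.1 and 2721 in UPPL1541 tumours against 15649. All MB49 tumours were above their culture and all tumours of the other lines below theirs, for a test of the difference between lines with adjusted p = 5.4e-05. Top2a, the topoisomerase that untangles replicated DNA, did likewise: log2 change -0.77, SE 0.209, adjusted p = 0.022 in BBN963, log2 change 0.86, SE 0.191, adjusted p = 0.0056 in MB49 and log2 change -1.66, SE 0.191, adjusted p = 9.4e-05 in UPPL1541. The MB49 culture was the lowest culture for both genes. Mcm2, a subunit of the replicative helicase, was the 1 shared gene of the list, and fell by 0.75 on the log2 scale (adjusted p = 0.0012). Of the other 2 that passed, Rrm2, a subunit of ribonucleotide reductase, fell in BBN963 and UPPL1541 tumours, and Mcm3 fell in UPPL1541 tumours. Rrm2 lost its call without the BBN963 culture (adjusted p = 0.14) and without the UPPL1541 culture (adjusted p = 0.20). Mcm3 lost its call without the UPPL1541 culture (adjusted p = 0.21).

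Sterol synthesis split MB49 from UPPL1541 in the same way. Of 20 genes tested (Hmgcs1, the remaining listed gene, is not analysed here), 1 was higher and 2 lower with line as a factor, and none was shared. Within a line 2 higher and 3 lower in BBN963, 17 and 0 in MB49, and 0 and 14 in UPPL1541, with medians of 0.30, 1.59 and -1.32; the change differed between lines for 19. Without the UPPL1541 culture 12 were higher, and without the MB49 culture 7 were lower. In the fit over all 36 libraries 0 were lower in BBN963, 9 higher in MB49 and 4 lower in UPPL1541. Mvk, mevalonate kinase, had 648 and 766 units in BBN963 tumours against 371 in the culture, 351, 359, 372 and 255 in MB49 tumours against 83.8, and 723, 1129, 939.9 and 1119 in UPPL1541 tumours against 539.7. It was the 1 gene higher with line as a factor (log2 change 1.26, SE 0.239, adjusted p = 0.0018). Of 10 fatty acid genes 2 were lower, 7 without the MB49 culture, 4 under quantile normalization and 0 without BBN963 tumour 1 and MB49 tumour 1. Within a line 0 higher and 5 lower in BBN963, 6 and 0 in MB49, and 0 and 8 in UPPL1541; the BBN963 count was 3 without BBN963 tumour 1. In the fit over all 36 libraries 0 fatty acid genes were lower in BBN963, 3 higher in MB49 and 3 lower in UPPL1541. With line as a factor 19.4% of all genes were higher and 8.70% lower, and the change differed between lines for 21.7%. Within a line 11.1% of all genes were higher and 11.1% lower in BBN963, 23.4% and 6.69% in MB49, and 17.0% and 7.96% in UPPL1541. Fasn, fatty acid synthase, had 1754 and 2321 units in BBN963 tumours against 4934 in the culture, 1921, 3001, 3081 and 2326 in MB49 tumours against 2236, and 3632, 2306, 3071 and 3339 in UPPL1541 tumours against 8346. Tumours fell below culture in BBN963 and UPPL1541 and straddled it in MB49. Fasn lost its call without any 1 of BBN963 culture, BBN963 tumour 1, BBN963 tumour 2, MB49 tumour 1, UPPL1541 culture, UPPL1541 tumour 3 and UPPL1541 tumour 4, at adjusted p of up to 0.28. Acsl3 lost its call without the BBN963 culture (adjusted p = 0.061), without BBN963 tumour 1 (adjusted p = 0.050) and without the UPPL1541 culture (adjusted p = 0.33). Acsl3, which activates fatty acids, fell most in UPPL1541 (log2 change -2.45, SE 0.286, adjusted p = 1.1e-04).

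**Figure D5:**
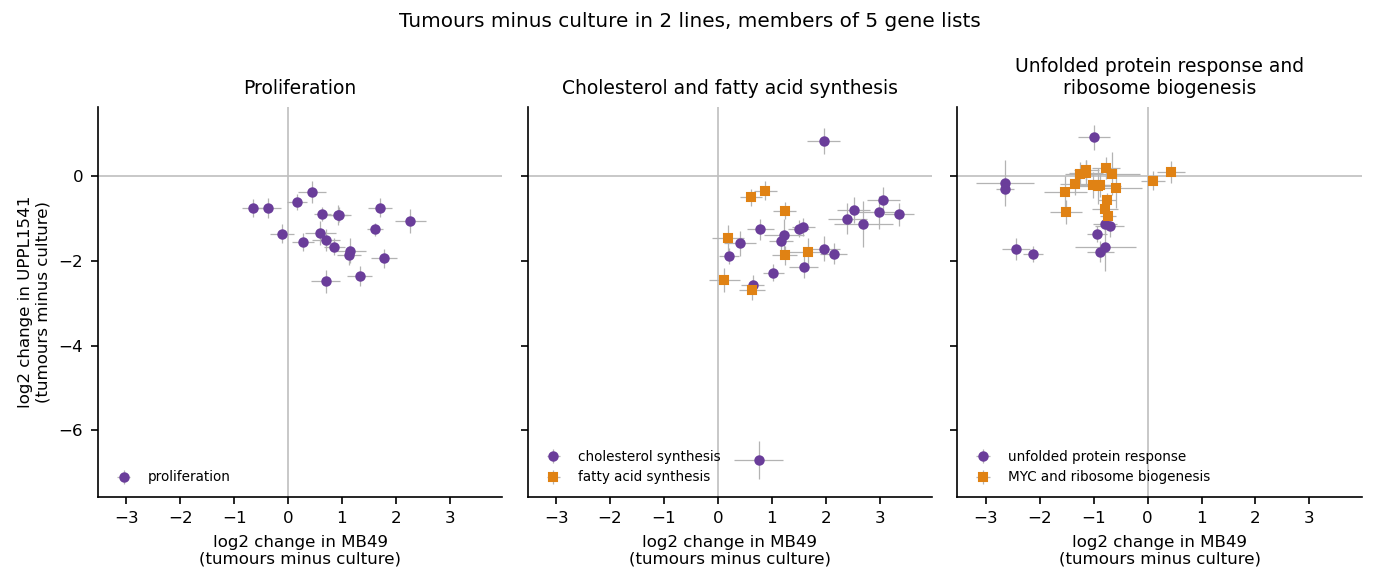
Each point is 1 gene of a list, placed by its log2 change in MB49 (horizontal) and in UPPL1541 (vertical), tumours minus culture, with bars of 1 SE; Fads1 and Fads2 are left out because their MB49 culture is listed at 0. Most proliferation, cholesterol and fatty acid genes lay right of 0 and below 0, higher in MB49 tumours and lower in UPPL1541 tumours, while most genes of the unfolded protein response lay below 0 on both axes.

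Genes of low oxygen and glycolysis were mostly higher in tumours. Of 18 genes 13 were higher (19.4% of all genes) and none lower (8.70%), 4 in every line (4.91%), with a median log2 change of 1.41. Bnip3, a mitochondrial protein of hypoxic autophagy, had 5817 and 7490.2 units in BBN963 tumours against 541 in the culture, 3268, 5441, 3161 and 2978 in MB49 tumours against 406, and 2929.5, 3915, 1547 and 1465 in UPPL1541 tumours against 341. No tumour overlapped a culture (log2 change 3.13, SE 0.294, adjusted p = 4.8e-06). Pdk1, the kinase that keeps pyruvate out of mitochondria, and Ankrd37, a target of the hypoxia factor, were shared (log2 change 2.14, SE 0.249, adjusted p = 3.5e-05 for Pdk1). Slc2a1, the glucose carrier, rose as well (log2 change 0.91, SE 0.215, adjusted p = 0.0070), most in BBN963 tumours, which had 14614 and 12162 units against 4487 in the culture. Vegfa, the growth factor of new vessels, did not pass (adjusted p = 0.11) and fell in MB49 tumours, with 798, 1901, 877 and 668 units against 4837 in the culture. The Bnip3 promoter is shown with the core of the hypoxia response element, ACGTG on either strand, in capitals; 2 matches on opposite strands overlap there.
Bnip3 (chr7:138909507-138909756, - strand): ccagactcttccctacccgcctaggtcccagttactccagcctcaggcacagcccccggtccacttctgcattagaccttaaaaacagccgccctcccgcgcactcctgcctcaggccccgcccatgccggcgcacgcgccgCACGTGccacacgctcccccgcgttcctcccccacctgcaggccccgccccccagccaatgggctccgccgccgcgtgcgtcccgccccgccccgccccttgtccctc
This core was present in 12 of 16 list genes with a promoter and in 18.5% of all genes with a promoter.

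Immediate early genes, which serum and handling induce within minutes, were higher for 6 of 16 members (19.4% of all genes) and lower for 1 (8.70%). Without the MB49 culture 10 were higher. Fos, a subunit of the AP-1 factor, had 891 and 759.8 units in BBN963 tumours against 68.1 in the culture, 143, 196, 114 and 439 in MB49 tumours against 35.7, and 685, 619, 293 and 388 in UPPL1541 tumours against 73.8. It was shared, and each tumour was above the culture of its line (log2 change 2.84, SE 0.404, adjusted p = 2.0e-04). Egr1, a zinc finger factor, rose in every line and most in UPPL1541 (log2 change 4.32, SE 0.407, adjusted p = 2.2e-05), with a difference between lines of adjusted p = 0.041. Jun, the partner of Fos, rose in BBN963 tumours (log2 change 1.61, SE 0.227, adjusted p = 5.0e-04) and fell in MB49 tumours (log2 change -1.02, SE 0.207, adjusted p = 0.0032). The time between removal and lysis of tumours is not given in the sources used here. Of 20 antioxidant genes 6 were higher and 2 lower, beside 19.4% and 8.70% of all genes (3 higher under quantile normalization, 5 lower without the MB49 culture). Txnrd1, thioredoxin reductase, fell in every line (log2 change -1.10, SE 0.144, adjusted p = 9.9e-05), whereas Hmox1, haem oxygenase, rose (log2 change 1.48, SE 0.298, adjusted p = 0.0027).

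Of 17 p53 targets 3 were higher and 4 lower, beside 19.4% and 8.70% of all genes (1 higher under quantile normalization, 8 lower without the UPPL1541 culture, 1 lower with array weights). Mdm2, which degrades p53, had 565 and 719 units in BBN963 tumours against 2293 in the culture, 3526, 1627, 3018 and 3611 in MB49 tumours against 15328, and 1118, 1019.6, 730.1 and 882 in UPPL1541 tumours against 962. It fell in BBN963 and MB49 tumours, and UPPL1541 tumours overlapped their culture (adjusted p for the difference = 0.019). Mdm2 lost its call without the BBN963 culture (adjusted p = 0.053) and without the MB49 culture (adjusted p = 0.10). Cdkn1a, the cell cycle inhibitor p21, fell in MB49 tumours (log2 change -1.56, SE 0.314, adjusted p = 0.0031) and rose in UPPL1541 tumours (log2 change 1.35, SE 0.314, adjusted p = 0.0090), in which Trp53 was low. Sesn1, sestrin, rose in every line (log2 change 1.91, SE 0.273, adjusted p = 2.1e-04). Of 15 YAP and serum response genes 3 were higher and 4 lower, beside 19.4% and 8.70% of all genes; without the MB49 culture 1 was higher, and 2 and 1 were lower without the BBN963 and the UPPL1541 culture. Ctgf, a matrix-associated growth factor, had 3275 and 3040.4 units in BBN963 tumours against 86.4 in the culture, 1518, 348, 194 and 458 in MB49 tumours against 0, and 2774, 804, 2079.7 and 2178 in UPPL1541 tumours against 15815. It rose in BBN963 tumours and fell in UPPL1541 tumours (log2 change -3.15, SE 0.868, adjusted p = 0.021), and the MB49 culture is listed at 0. Cyr61, its relative, fell in UPPL1541 tumours (log2 change -3.00, SE 0.589, adjusted p = 0.0035). Of 10 TGF-beta targets 4 were higher and 1 lower, beside the same shares of all genes. Under quantile normalization, by edgeR or without the MB49 culture 2 were higher. Inhba, an activin subunit, was the 1 that fell (log2 change -2.11, SE 0.603, adjusted p = 0.020). Inhba lost its call without the BBN963 culture (adjusted p = 0.13) and without the UPPL1541 culture (adjusted p = 0.14).

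Squamous differentiation genes, which build the outer layers of stratified epithelium, rose in tumours of the Krt5-rich lines. Of 21 tested 19 were higher (19.4% of all genes) and none lower, with a median of 4.37. Within a line 17 rose in BBN963 tumours (11.1% of all genes), 15 in UPPL1541 tumours (17.0%) and 6 in MB49 tumours (23.4%), where 1 fell (6.69%). With line as a factor 4 were higher without the line UPPL1541, 12 without BBN963 and 9 in the fit over all 36 libraries. Within a line, that fit gave only 3 higher in BBN963, 1 in MB49 and 4 in UPPL1541. The change differed between lines for 14, beside 21.7% of all genes. Krt1, a keratin of suprabasal cells, had 1423 and 773 units in BBN963 tumours against 0 in the culture, 0, 0, 0 and 0 in MB49 tumours against 0, and 117120, 198340, 98390 and 150370 in UPPL1541 tumours against 14.9. Krt10, its partner in the filament, had 852 and 1228 units in BBN963 tumours against 96.1 in the culture, 10.4, 13.5, 19.2 and 15.2 in MB49 tumours against 43.4, and 110590, 219560, 127190 and 189790 in UPPL1541 tumours against 59.8. In UPPL1541, tumours exceeded the culture by more than 1000 times in both genes, in BBN963 the rise of Krt10 was smaller (log2 change 3.40, SE 0.436, adjusted p = 2.7e-04), and in MB49 Krt10 fell (log2 change -1.54, SE 0.398, adjusted p = 0.013). The difference between lines passed for both (adjusted p = 1.8e-06 for Krt1 and 5.8e-07 for Krt10). Sprr1a, a precursor of the cornified envelope, and Klk10, a kallikrein protease of the same layers, were shared. Sprr1a had 29670 and 30714 units in BBN963 tumours against 852 in the culture, 242, 391, 203 and 321 in MB49 tumours against 1.93, and 14080, 23443, 17148 and 19243 in UPPL1541 tumours against 6385, so MB49 tumours passed at a level far below that of the other lines.

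Few basal or luminal genes passed with line as a factor, by which 19.4% of all genes were higher and 8.70% lower. Of 16 basal genes 1 was higher and 2 lower, with a median of 0.03; 5 were lower under quantile normalization and 8 without the MB49 culture, and 3 were higher without MB49 tumour 2. Krt14, a basal keratin, had 250370 and 229050 units in BBN963 tumours against 75713 in the culture, 604, 131, 505 and 408 in MB49 tumours against 1.93, and 131580, 184960, 115330 and 134900 in UPPL1541 tumours against 36994. It was the 1 higher gene with line as a factor (adjusted p = 0.0036), and all tumours were above the culture of their line. Cd44, a hyaluronan receptor, was among the lower ones (log2 change -0.68, SE 0.211, adjusted p = 0.029). Cd44 lost its call without the BBN963 culture (adjusted p = 0.080) and without the UPPL1541 culture (adjusted p = 0.28). Of 18 luminal genes 1 was higher and 1 lower; 5 were lower under quantile normalization and 4 without the MB49 culture. The 2 that passed went apart. Krt20, a keratin of superficial urothelium, had 360.4 and 250 units in BBN963 tumours against 0 in the culture, 0, 3.37, 0 and 0 in MB49 tumours against 0.964, and 3139.8, 5966, 3934 and 4069 in UPPL1541 tumours against 6.54. Krt18, a keratin of simple epithelium, had 103 and 172 units in BBN963 tumours against 4462 in the culture, 9246, 12684, 9699 and 7684 in MB49 tumours against 5265, and 541, 562, 571 and 486 in UPPL1541 tumours against 5444. Krt18 thus fell in BBN963 (log2 change -5.06, SE 0.315, adjusted p = 1.6e-06) and UPPL1541 tumours (log2 change -3.33, SE 0.287, adjusted p = 1.2e-05) and rose in MB49 tumours (log2 change 0.88, SE 0.287, adjusted p = 0.039). Krt18 lost its call without the BBN963 culture (adjusted p = 0.18) and without the UPPL1541 culture (adjusted p = 0.16). Krt20 lost its call without the BBN963 culture (adjusted p = 0.052) and without the UPPL1541 culture (adjusted p = 0.097).

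Of 18 epithelial junction genes 4 were higher and 2 lower, beside 19.4% and 8.70% of all genes (2 higher under quantile normalization or without the BBN963 culture, 4 lower without the MB49 culture). Jup and Pkp3, plaque proteins of desmosomes, rose in every line (log2 change 1.86, SE 0.225, adjusted p = 5.0e-05 for Jup), and Cldn7, a tight junction claudin, fell in BBN963 and UPPL1541 tumours. Cdh1, E-cadherin, had 11689, 11902, 10602 and 9795 units in UPPL1541 tumours against 33287 in the culture, and did not pass there (adjusted p = 0.051). Of 14 mesenchymal genes 8 were higher, 5 without the UPPL1541 culture and 5 by edgeR. Vim, the intermediate filament of fibroblasts and of mesenchymal cancer cells, had 3708 and 2266 units in BBN963 tumours against 417 in the culture, 73349, 62805, 63975 and 65174 in MB49 tumours against 19076, and 8139, 3999, 7817 and 9113 in UPPL1541 tumours against 139. All tumours were above their own culture, most so in UPPL1541 (log2 change 5.63, SE 0.381, adjusted p = 1.9e-06), which differed from both other lines. Prrx1, a fibroblast transcription factor, had 1656, 545, 1669 and 2271 units in UPPL1541 tumours against 21.5 in the culture. The fibroblast list moved in the same libraries, and its part in these changes was not tested.

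Chemokine genes gained and lost members: 6 of 16 were higher and 3 lower, with 6 lower without the MB49 culture and 1 without the BBN963 culture. Beside each list of this paragraph stand the shares of all genes, 19.4% higher and 8.70% lower. Ccl8 and Ccl6, made by macrophages, were shared, with 2675 and 2044 units of Ccl8 in BBN963 tumours. Cxcl12, a chemokine of stromal cells, had 1024, 199.8, 188 and 223 units in MB49 tumours, the highest in tumour 1. Ccl2, which recruits monocytes, fell in BBN963 tumours (log2 change -2.82, SE 0.737, adjusted p = 0.018). Of 15 proteases and inhibitors 6 were higher and 1 lower. Mmp13, a collagenase, was shared and had 2415 and 4033 units in BBN963 tumours against 63.3 in the culture, 7277, 2288, 3508 and 4121 in MB49 tumours against 8.67, and 12215, 2141, 6060.4 and 3559 in UPPL1541 tumours against 133. Of 18 Wnt and Notch genes 9 were higher and 2 lower (4 lower without the MB49 culture). Sfrp2, a secreted Wnt antagonist of fibroblasts, was the 1 shared gene, with 4438, 957, 6743 and 6048 units in UPPL1541 tumours against 2.80 in the culture. Of 9 EGF receptor genes Hbegf rose (log2 change 0.53, SE 0.173, adjusted p = 0.035) and Ereg fell, whereas Hbegf lost its call without any 1 of BBN963 culture, BBN963 tumour 1, BBN963 tumour 2, MB49 culture, MB49 tumour 3 and UPPL1541 tumour 1, at adjusted p of up to 0.17. Egfr fell in BBN963 and UPPL1541 tumours and rose in MB49 tumours (log2 change 1.18, SE 0.302, adjusted p = 0.012). Of 14 respiratory chain genes 5 were higher and none lower, a count that was 1 without the MB49 or the UPPL1541 culture, 2 without MB49 tumour 3 or tumour 4 and 3 without BBN963 tumour 2 or UPPL1541 tumour 3; Cox6c, a subunit of cytochrome oxidase, rose by 0.86 on the log2 scale (adjusted p = 0.011). Cox6c lost its call without the MB49 culture (adjusted p = 0.056) and without the UPPL1541 culture (adjusted p = 0.10).

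The genes most particular to BBN963 tumours included a culture value that stood alone. Serpinh1, the collagen chaperone, had 4967 and 3874 units in BBN963 tumours against 0 in the culture, 10620, 5952, 5689.8 and 7629 in MB49 tumours against 11676, and 12536, 4657, 12319 and 13112 in UPPL1541 tumours against 4165. The BBN963 culture is listed at 0, while each of the 12 other libraries held 3874 units or more. Sprr2d, a precursor of the cornified envelope, had 5506 and 3925 units in BBN963 tumours against 18.2 in the culture (log2 change 7.92, SE 0.769, adjusted p = 3.6e-05). Krt23 and Cyp2b10, a keratin and a cytochrome P450 of xenobiotic metabolism, were listed at 0 in the BBN963 culture and had 223 and 312 units of Krt23 and 527 and 364 units of Cyp2b10 in tumours. On the lower side Sncg, gamma-synuclein, had 41.9 and 156 units in BBN963 tumours against 2798 in the culture. Rgs17, a regulator of G protein signalling, and Ddit4l and Lrrn3 were listed at 0 in both BBN963 tumours, against 318 units of Rgs17, 114 of Ddit4l and 118 of Lrrn3 in the culture.

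Several genes that MB49 tumours held were listed at 0 in the MB49 culture, a single library in which a listed 0 may be a failed estimate. Igfbp7, a secreted binding protein of the insulin-like growth factor family, had 2794 and 2257 units in BBN963 tumours against 14219 in the culture, 2342, 1108, 650.3 and 1092 in MB49 tumours against 0, and 5498, 3872, 5227 and 4829 in UPPL1541 tumours against 14195. Igfbp7 stood above a listed 0 in MB49 tumours and fell in the other lines, in which cultures were the highest libraries. Igfbp3 of the same family and Fads1, a fatty acid desaturase, were also listed at 0 in the MB49 culture, with 1929, 1794, 961 and 1171 units of Igfbp3 and 421, 495, 325 and 263 units of Fads1 in tumours. Prl2c3, a prolactin-family hormone, had 669, 1367, 1187 and 1069 units in MB49 tumours against 17.3 in the culture (log2 change 5.82, SE 1.40, adjusted p = 0.0088), and its near-identical relatives may share reads. In the other direction Esrp1, a splicing factor of epithelial cells, was listed at 0 in all 4 MB49 tumours and had 205 units in the culture, while tumours of BBN963 and UPPL1541 had 2646 to 3604. Ngfr, the nerve growth factor receptor, had 71.8, 95.4, 216 and 125 units in MB49 tumours against 3828 in the culture (log2 change -5.02, SE 0.568, adjusted p = 5.2e-05). Adh7, an alcohol dehydrogenase that makes retinoic acid precursors, fell in MB49 tumours (log2 change -5.27, SE 0.550, adjusted p = 2.8e-05) and rose in BBN963 tumours (log2 change 2.69, SE 0.602, adjusted p = 0.0085). Cd34, a sialomucin of vessels and stem cells, had 5248, 5283, 4180.2 and 5099 units in MB49 tumours against 15258 in the culture, and rose in the other lines.

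The genes named as particular to UPPL1541 were of several kinds. Krt10, described above, was particular to the line and higher. Pla2g2f, a phospholipase of the outer epidermis, was listed at 0 in every other library and in the UPPL1541 culture, and had 845, 1040.4, 765 and 1055 units in UPPL1541 tumours. Trh, thyrotropin-releasing hormone, had 1044, 3129, 918 and 979 units in UPPL1541 tumours, listed at 0 in the culture, and 0, 0, 6.40 and 0 in MB49 tumours. Col10a1, a short-chain collagen of cartilage, had 444, 186, 419.7 and 470.4 units and was likewise listed at 0 in the culture. Among lower genes Timp3, an inhibitor of matrix proteases, had 714 and 816 units in BBN963 tumours against 261 in the culture, 519, 618, 454 and 334 in MB49 tumours against 0, and 4368, 1143, 4859.8 and 4204 in UPPL1541 tumours against 40509. It fell in UPPL1541 tumours (log2 change -3.67, SE 0.633, adjusted p = 0.0016) and was listed at 0 in the MB49 culture. Slc38a1, a glutamine carrier, had 238, 96.5, 249.6 and 205 units in UPPL1541 tumours against 2940.2 in the culture (log2 change -3.98, SE 0.587, adjusted p = 5.5e-04), while it rose in MB49 tumours, with 204, 224, 188 and 141 units against 3.85 in the culture. Flt1 and Ctgf, described with the endothelial and YAP genes, were the other 2 genes named as lower and particular to UPPL1541.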

How the data were processed

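Bulk RNA of 10 line-derived tumours and 3 cultures had been purified with Qiagen RNeasy kits and made into TruSeq Stranded mRNA libraries, per the labels' protocols. Build mm9, Picard 1.64, SAMtools and RSEM are named, without roles, per the submitters' processing notes; the annotation, the strand setting and the counting of reads shared by near-identical genes are not given in the sources used here. Values of close relatives (Prl2c3, Sprr, globin, histocompatibility, Gbp and Ifit genes) are therefore uncertain. The deposited values are a signal that stands, in each library, at 1000 units at the 75th percentile of nonzero values; 92.0% to 95.9% of values in a library were whole multiples of 1 read within 0.02, which gave the reads per library.

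Of 21705 genes, 14716 with at least 10 units in at least 2 of 13 libraries were fitted as log2(value + 1) with limma 3.58.1 in R 4.3.3 (empirical Bayes with trend), with line as a factor (9 residual degrees of freedom) and as 6 groups of line and state (7), the source of the contrasts within a line, of the F test of a difference between lines and of pairwise differences. P-values were Benjamini-Hochberg adjusted over all genes tested, threshold 0.05. Alternatives changed the pseudocount (10), the filter, the scaling, the variance model, the libraries in the fit, the replicate block and the test (edgeR 4.0.16 on reads recovered from the deposited values). One alternative, without BBN963 tumour 1 and MB49 tumour 1, was chosen after seeing the data.

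The samples, gene lists and named genes were chosen with earlier results of these data known. The rule for names took the genotype and sex chromosome genes; the 8 shared genes with the largest rise and the 8 with the largest fall, by the smallest of the 3 changes; 4 genes per line and direction by the smaller difference from the other lines; and, from each list, its first 2 genes and up to 3 more with the lowest adjusted p. Ranked genes outside the lists needed a mean of 100 units in the higher state, and predicted or numbered transcripts were skipped. Genes beyond that rule were chosen after their values were seen, and some genes within it are not reported here. The fits were tested on simulated data with 50 changed genes of each kind: shared log2 changes of 1 were called for 52% of genes with line as a factor and as shared for 4%, and those of 3 for 100% and 72%; a change of 3 in MB49 alone was called in MB49 for 88%, and 0.0138% of unchanged genes were called. A gene missing from the shared group may therefore still change in every line. The simulated cultures varied as the tumours did, which the fits also assume, so the simulation cannot show whether that assumption fails. Changed genes were few and had a mean level above 100 units, whereas 28.1% of genes were called in the data. The low share of unchanged genes called thus holds for that setting only. Promoters came from RefSeq on GRCm38.p6 by gene symbol, and no coordinate was converted to or from mm9. Python 3.11.15, numpy 2.4.6, pandas 2.3.3 and matplotlib 3.10.9 were used for lists, motifs and figures.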

Additional observations from a re-analysis of the deposited data

Results flagged for a closer look

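A tumour was set apart when its gap to the nearest other tumour of its line took up most of the range of the 4. Chance marks about 1 in 20 independent groups of normally spread values, and 16 of 204 groups of 4 were marked here. These groups share libraries and some genes, so that rate is only a rough guide. Where all other tumours of a line are at 0, any value above 0 is marked, as for Krt20 and Trh in MB49. UPPL1541 tumour 3 was high for B2m (59339 units) and Tap1 (2527 units). UPPL1541 tumour 2 was low for Cdh5 (143 units) and Serpinh1 (4657 units) and high for S100a8 (15108 units) and Trh (3129 units). MB49 tumour 1 was high for Acta2 (3164 units). MB49 tumour 2 was low for Chka (654 units) and Phgdh (1723 units), high for Bnip3 (5441 units), and the 1 MB49 tumour above 0 for Krt20 (3.37 units). MB49 tumour 3 was low for Acta1 (1078 units) and the 1 above 0 for Trh (6.40 units). Of list means on the log2 scale, fatty acid synthesis was low in UPPL1541 tumour 2 (10.27), hypoxia and glycolysis high in MB49 tumour 2 (11.60) and the p53 targets low in UPPL1541 tumour 3 (9.50).

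Of 60 genes given in full, the change between tumours and culture differed between lines for 22, beside 21.7% of all genes. Some of them, such as Serpinh1, Trh and Flt1, were named because their change already differed by test from both other lines. Their F tests are thus no separate support, and the count does not stand for genes in general. The limma F test gave these adjusted p values among genes of the epithelium: 5.8e-07 for Krt10, 1.8e-06 for Krt1, 1.6e-06 for Esrp1, 1.5e-05 for Krt18, 5.4e-04 for Krt20 and 0.0020 for Krt14. Among genes of growth and p53 it gave 5.4e-05 for Mki67, 2.5e-04 for Top2a, 0.0046 for Trp53, 0.0022 for Cdkn1a, 0.019 for Mdm2 and 0.041 for Egr1. For the lipid gene Fasn it gave 0.028. It gave 2.0e-06 for Csf1r and 7.7e-04 for Cd74, both expressed in macrophages, 4.4e-05 for the receptor gene Flt1 and 0.0012 for Vim. The others were Igfbp7 at 1.5e-06, Serpinh1 at 2.8e-06, Ctgf at 1.7e-04, Trh at 0.0028 and the Y-linked Ddx3y at 0.0026.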

How the results depend on the processing

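Of 6164 values of single genes, 5767 kept their direction and side of the threshold, 306 values of 68 genes no longer passed, 91 values of 27 genes passed only under the alternative, and 0 reversed. With no filter, particular genes numbered 354 lower in BBN963, 258 lower in MB49, and 156 higher and 242 lower in UPPL1541. Quantile normalization gave 2415 lower genes with line as a factor, 1917 higher and 1678 lower in MB49, 469 shared higher, and as particular 42 lower in BBN963, 414 higher and 249 lower in MB49 and 57 higher in UPPL1541. Median-of-ratios scaling gave 1554 lower genes in MB49 and as particular 137 higher and 80 lower in BBN963, 284 lower in MB49 and 92 lower in UPPL1541. Without the variance trend 52 lower genes were shared, and array weights left 1629 higher and 497 lower. By edgeR on recovered reads 2329 genes were higher and 1847 lower with line as a factor, 1583 were lower in MB49, and 64 lower in BBN963, 218 lower in MB49 and 39 higher in UPPL1541 were particular. With all 36 libraries in the fit, 522 higher and 332 lower genes passed in BBN963, 1849 and 339 in MB49, 953 and 250 in UPPL1541, 662 differed between lines, 210 higher and 8 lower were shared, and 4 and 5 were particular to BBN963, 237 and 20 to MB49, 4 and 0 to UPPL1541. Without UPPL1541 as a line 1440 were higher and 525 lower, and the mean of the 3 contrasts gave 2118 lower. The cause of these shifts was not tested. Leaving out 1 library, genes particular to BBN963 and lower ranged from 67 to 528, those particular to UPPL1541 from 59 to 138 higher and from 34 to 63 lower. Of the 722 shared higher genes 464 also passed as shared under quantile normalization and 585 by edgeR; of the 102 lower ones, 93 and 83. Counts of list members with line as a factor also moved with array weights: 5 in place of 9 higher Wnt and Notch genes, 6 in place of 11 lower amino acid genes, 2 in place of 4 higher dendritic cell, junction and TGF-beta genes each, 8 in place of 3 lower cell cycle genes, 4 in place of 2 lower sterol genes, 3 in place of 1 lower luminal genes, 1 in place of 3 lower chemokines, 1 in place of 5 respiratory genes and 0 in place of 4 muscle genes. Without the line MB49, 2 in place of 5 mast cell genes were higher. Without the line UPPL1541, 3 in place of 9 Wnt and Notch genes and 3 in place of 6 antioxidant genes were higher, and 5 in place of 11 amino acid genes lower.

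Over 8 pairs of tumours with the same number in different lines, the correlation of deviations was -0.092 to 0.066, with 0 above 0.1. The deviations of the BBN963 tumours mirror each other, so their pairs are not separate readings. A shared host, day or batch of modest effect need not show in such correlations, so whether tumour numbers pair samples stays unknown. With the tumour number as a replicate block, 720 genes were lower with line as a factor, 947 lower in BBN963, 2088 differed between lines and 56 lower were shared, and as particular 27 higher and 23 lower in BBN963, 86 lower in MB49, and 41 higher and 22 lower in UPPL1541.

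At 10.64 M to 14.94 M reads, low genes are least certain in BBN963 tumours 1 and 2 and MB49 tumour 1, where the commonest low value was 19, 9 and 11 reads. Without BBN963 tumour 1 and MB49 tumour 1, 614 of the 722 shared higher and 72 of the 102 shared lower genes also passed as shared.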

Other observations

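Each of 2 lines shares its number with 1 primary tumour, whose library gives a further reading beside tumours and culture. These are 1 library each, so the values are given without a test. The primary tumour numbered UPPL1541 had 1029.9 units of Ddx3y and 815 units of Eif2s3y, both Y-linked. Line-derived tumours of UPPL1541 had 136, 74.3, 194 and 70.3 units of Ddx3y and 59.7, 49.5, 68.3 and 28.6 of Eif2s3y, and the culture had 0.934 and 5.60. Upk3a stood at 1784 units in that primary tumour, at 15.5, 56.1, 39.7 and 29.8 in the line-derived tumours and at 93.4 in the culture. Krt1 and Krt10 stood in the primary tumour at 13568 and 3600.5 units, and all 4 line-derived tumours exceeded both values. Trp53 stood at 49.0 units in the primary tumour numbered UPPL1541 and at 1064 in the one numbered BBN963. Krt18 had 5244 units in the primary tumour numbered BBN963, 103 and 172 in the line-derived tumours and 4462 in the culture. Ctgf had 153 units in the primary tumour numbered UPPL1541, 2774, 804, 2079.7 and 2178 in the line-derived tumours and 15815 in the culture. Flt1 had 146 units there, 814, 249, 422 and 395 in the line-derived tumours and 1835 in the culture.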
